A study of Mus musculus with 2 samples.

Results

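The regions described here are 1122 stretches of open chromatin that both pools of adrenal gland shared and that carried relatively more DNase I signal in the second pool. They were selected on the measured signal itself. Peaks of both pools were merged where they overlapped by at least 1 bp, which gave 96584 regions with a peak of each pool. The highest signal of each pool was taken per region, and the log2 ratio of replicate 2 to replicate 1 was centred on its median over all shared regions. Regions with a centred log2 ratio of 0.8 or higher were kept, 1.16% of all shared regions. The ratio chose the regions, so it is given as a description, and with 1 library per pool no test of it was made.

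The samples were adrenal glands of male B6CASTF1/J mice aged 8 to 10 months, from The Jackson Laboratory. This strain is the first-generation cross of C57BL/6J with CAST/EiJ. The labels hold 1 group and 2 biological replicates, pool G (replicate 1) and pool J (replicate 2), each a pool of 6 biosamples and 1 library. Both pools carry the same donor identifier, no treatment is named, and how many animals gave the biosamples was not given in the sources used here. The alleles of the parental strains were not separated in the deposited lists. Defining genes of the cortex and the medulla had promoter peaks in both pools. The promoter signals of Star, which carries cholesterol into mitochondria, were 5.44 and 6.52, and those of Th, the rate-limiting enzyme of catecholamine synthesis, 1.65 and 2.23. After centring, the log2 ratio was slightly below 0 at the cortex promoters checked (Star -0.09, Cyp11a1 -0.12, Fdxr -0.22) and above 0 at those of the medulla (Th 0.09, Dbh 0.11, Chga 0.43). These are examples, and over the longer gene lists below the promoter medians of the cortex lay on both sides of 0. They were -0.09 for steroidogenesis, -0.08 for cholesterol synthesis and 0.12 for zona glomerulosa and capsule genes. The promoter median for chromaffin cell genes of the medulla was 0.10. The part of the makeup of the pools in the results below was not tested.

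DNase I cuts DNA where nucleosomes are absent or displaced, so its cleavage marks promoters, enhancers and insulators. Away from promoters such sites are held open by transcription factors that bind short sequences: AP-1, the Fos and Jun dimers that respond to growth signals and stress, at enhancers; CTCF, which anchors chromatin loops, at insulators; and nuclear receptors at hormone-responsive sites. In the adrenal gland the cortex makes steroid hormones and the medulla makes catecholamines. The NR4A orphan receptors, which are immediate early genes in many tissues, and NR5A1, the master regulator of steroidogenic cells, bind related sequences. In a whole gland, a larger number of cells with a site open and more cleavage per cell cannot be told apart.

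The sequences below are the peaks of replicate 2 in 8 of these regions, given 5′ to 3′ on the plus strand of mm10. The first 5 hold the AP-1 sequence TGAGTCA or its reverse complement TGACTCA, which is in capitals; 3 of them are among the regions with the highest ratio and the other two among those with the most signal. The sixth holds a CTCF sequence, in capitals. The last 2, without capitals, hold no AP-1, CTCF, NR4A or glucocorticoid receptor sequence: the region near Rora, which had the second highest ratio, and the Scg3 intron, which lies in a gene of the medulla.
Erc1 intron, chr6:119709681-119709840: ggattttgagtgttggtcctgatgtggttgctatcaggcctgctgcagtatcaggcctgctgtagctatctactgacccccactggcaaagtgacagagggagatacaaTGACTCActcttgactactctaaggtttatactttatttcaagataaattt
Mamdc2 intron, chr19:23375041-23375260: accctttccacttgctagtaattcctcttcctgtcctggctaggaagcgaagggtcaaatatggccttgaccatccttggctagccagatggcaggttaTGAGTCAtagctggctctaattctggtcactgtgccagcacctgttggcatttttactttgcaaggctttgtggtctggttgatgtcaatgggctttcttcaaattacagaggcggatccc
Gm5447 region, chr13:31148261-31148480: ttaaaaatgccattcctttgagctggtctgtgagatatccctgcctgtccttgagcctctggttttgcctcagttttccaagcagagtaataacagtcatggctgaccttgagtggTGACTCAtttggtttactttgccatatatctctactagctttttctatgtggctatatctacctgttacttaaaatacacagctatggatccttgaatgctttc
Rhob region, chr12:8488441-8488640: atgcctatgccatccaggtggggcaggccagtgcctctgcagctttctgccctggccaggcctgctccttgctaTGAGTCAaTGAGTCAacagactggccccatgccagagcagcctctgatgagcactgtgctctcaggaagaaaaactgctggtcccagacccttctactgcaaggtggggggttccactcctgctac
Slc4a7 region, chr14:14633241-14633440: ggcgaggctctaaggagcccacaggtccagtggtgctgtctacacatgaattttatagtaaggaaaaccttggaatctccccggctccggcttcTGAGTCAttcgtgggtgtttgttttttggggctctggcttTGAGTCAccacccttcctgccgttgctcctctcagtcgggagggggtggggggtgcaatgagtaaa
Ntrk3 region, chr7:77495201-77495360: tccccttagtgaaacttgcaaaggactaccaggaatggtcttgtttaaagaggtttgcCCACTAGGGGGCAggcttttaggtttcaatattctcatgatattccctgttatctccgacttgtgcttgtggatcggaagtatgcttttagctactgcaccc
Rora region, chr9:68466781-68466960: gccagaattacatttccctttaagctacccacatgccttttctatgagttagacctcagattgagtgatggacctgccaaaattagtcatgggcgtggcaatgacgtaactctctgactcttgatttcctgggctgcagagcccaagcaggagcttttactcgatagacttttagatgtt
Scg3 intron, chr9:75665461-75665680: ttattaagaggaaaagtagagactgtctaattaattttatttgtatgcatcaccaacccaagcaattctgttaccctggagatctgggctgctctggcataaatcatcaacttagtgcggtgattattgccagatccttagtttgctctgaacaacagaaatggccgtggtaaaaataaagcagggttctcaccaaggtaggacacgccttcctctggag
The Rhob peak held 2 AP-1 sequences with 1 base between them, and the Slc4a7 peak also held 2.

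Most of the 1122 regions were weak in replicate 1 and near the middle of the range in replicate 2. In replicate 1 the median of the authors' signal was 0.386 (range 0.104 to 2.19), and in replicate 2 it was 0.951 (range 0.312 to 4.87). The other shared regions had medians of 0.817 and 1.05. The members therefore stood below the other regions in replicate 1 and close to them in replicate 2. Over all shared regions the median ratio of replicate 2 to replicate 1 was 1.27-fold, so the threshold stood at 2.22-fold before centring, and the median member had a 2.39-fold ratio. The centred log2 ratio of members had a median of 0.90 and a maximum of 1.73. It was 1 or higher in 286 regions, 1.2 or higher in 68, and under 0.9 in 545.

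Many members thus lay near the threshold. Just inside it were a region near Nek6 on chromosome 2 (signal 1.54 and 3.41 in replicates 1 and 2), one near Stab2 on chromosome 10 and one in Col23a1 on chromosome 11 (0.468 and 1.04 in both). Just outside were 3 regions that all had 0.357 and 0.791, near Pbdc1 on chromosome X, Cr2 on chromosome 1 and Vmn2r10 on chromosome 5. All signal values were whole multiples of 1 step per pool, 0.00743 and 0.00799, and the median member held 52 steps in replicate 1 and 119 in replicate 2. If 1 step is 1 cleavage, which the sources used here do not state, the exact 95% counting interval of the centred log2 ratio lay above 0 in all 1122 members and above 0.8 in 29. These intervals cover counting error only and leave out the choice of the regions by this ratio and the spread between animals.

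The share of regions past the threshold changed with the signal. Over 10 equal classes of the mean log2 signal it was 1.26% in the lowest, 2.44% in the next, and then fell to 0.114% in the ninth class and 0% in the highest. The opposite set, the 2495 regions at -0.8 or lower (2.58% of shared regions), made up 9.32% of the lowest class and 0.114% of the highest. Of the 1122 members, 37 had a signal above 1 in replicate 1. Members had a median width of 220 bp, against 240 bp for the others. Of the members, 1107 (98.7%) were formed by 1 peak of each pool, close to the 96.2% of the other shared regions and the 97.4% of the weaker set, and in 1121 the highest peaks of the pools overlapped.

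**Figure D1:**
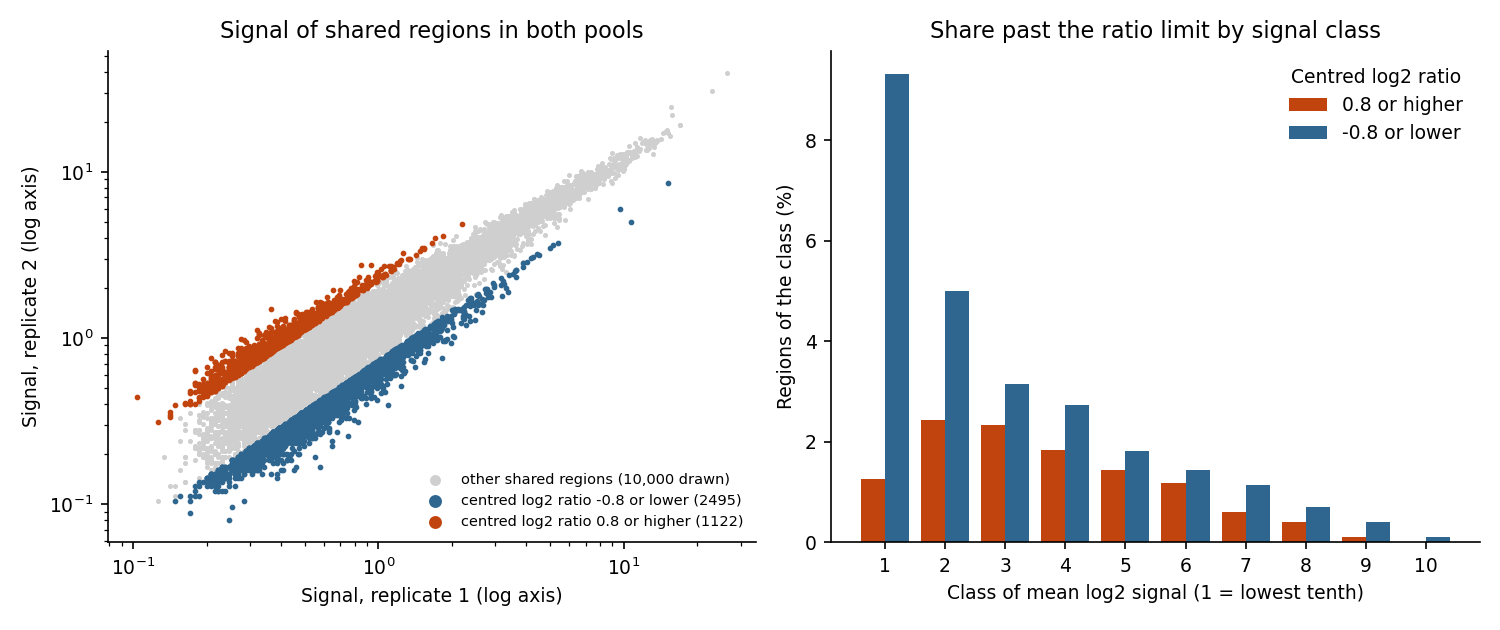
Left, the authors' signal of shared regions in replicate 1 and replicate 2 on log axes, with 10000 of the other regions drawn as a sample. Right, the share of each of 10 classes of the mean log2 signal at a centred log2 ratio of 0.8 or higher (orange) or -0.8 or lower (blue); members made up 2.44% of the second class and 0% of the highest.

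The 12 members with the highest ratio were weak sites, mostly far from the TSS of any coding gene. Their signal was 0.104 to 0.364 in replicate 1 and 0.440 to 1.49 in replicate 2, and 9 of them lay over 50 kb from the nearest TSS of a coding gene. Of the 12, 7 lay between genes, 4 in introns and 1 at a promoter. First was a 400 bp region in an intron of Hao2, a peroxisomal hydroxyacid oxidase gene, at chr3:98879661-98880060, with 0.104 and 0.440 (centred log2 ratio 1.73). It rested on 14 steps in replicate 1 and 55 in replicate 2, the fewest of the 12 in both, and it held no footprint in either pool. It also lay 20067 bp from a TSS of Hsd3b1, the 3β-hydroxysteroid dehydrogenase gene. The second, 186915 bp from the TSS of Rora, a nuclear receptor gene, had 0.364 and 1.49 (1.68) and rested on 49 and 186 steps. The promoter region was that of Trpc7, a cation channel gene, with 0.208 and 0.751 (1.50).

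The other 9 had centred log2 ratios of 1.39 to 1.49. A region 275851 bp from Il7, a cytokine gene, had 0.178 and 0.640. The intron of Erc1, a scaffold gene of the presynaptic active zone, had 0.275 and 0.983. The region 1082502 bp from Ntrk3, the neurotrophin-3 receptor gene, had 0.178 and 0.632. These 3 sites were thus below the lower quartile of the other shared regions in replicate 1 (0.498) and above it in replicate 2 (0.616). An intron of Itgae, an integrin gene of tissue-resident lymphocytes, had 0.320 and 1.12, and one of Mamdc2, an extracellular matrix gene, had 0.282 and 0.967. Regions in gene-poor stretches had 0.238 and 0.831 (719978 bp from Arpp21), 0.230 and 0.783 (174167 bp from Gm5447), 0.201 and 0.671 (202450 bp from Mme, the neprilysin gene) and 0.215 and 0.719 (292760 bp from Tle4, a corepressor gene). In 11 of the 12 regions replicate 1 had no base at a false discovery rate (FDR) of 0.001 or lower, and 7 held no footprint there.

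The 10 members with the most signal in replicate 2 were strong in both pools, with 1.26 to 2.19 in replicate 1 and 3.17 to 4.87 in replicate 2. All but that in Ube2e2 had centred log2 ratios under 0.9. The strongest, at chr16:11143861-11143960 inside Zc3h7a, had 2.19 and 4.87 and lay 214 bp from the TSS of the noncoding gene Gm23935. A pair of regions between Trim27 and Gpx5 on chromosome 13 had 1.51 and 3.45, and 1.84 and 4.12. A region 11468 bp from Rhob, a small GTPase gene, had 1.71 and 3.997, and one 66992 bp from Vav3 had 1.54 and 3.47. Both held an AP-1 sequence, as did 6 of the 10 in all. The others of these were the regions near Slc4a7, a bicarbonate transporter gene (1.66 and 3.72), Nek6, a mitotic kinase gene (1.54 and 3.41), and S100a10, an annexin partner gene (1.43 and 3.17), and the intron of Ube2e2, a ubiquitin-conjugating enzyme gene (1.26 and 3.22, centred log2 ratio 1.01). The promoter of Cyp1b1, a cytochrome P450 gene that oxidises steroids and xenobiotics, had 1.47 and 3.34 and held a CTCF sequence. Each of the 10 held a footprint in both pools. For comparison, AP-1 was found in 19.0% of all shared regions over 1 kb from every TSS. No AP-1 share was computed for equally strong regions, or for regions within 1 kb of a TSS, which were 3 of the 10.

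Members were distal more often than other shared regions. A region was put in the promoter class where its midpoint lay within 1 kb of any annotated transcription start site (TSS), and the rest were divided into exons, introns and the space between genes. Promoters held 99 members, 8.82% (exact 95% interval 7.23 to 10.6), against 25.02% of the other shared regions. The space between genes held 545, 48.6% (45.6 to 51.5), against 30.6%. These intervals treat regions as independent draws, which they are not, and say nothing about spread between animals. Introns held 446 members (39.8%, others 40.3%) and exons 32 (2.85%, others 4.14%). The regions weaker in replicate 2, those at -0.8 or lower, were also short of promoters (9.54%) and had 42.0% between genes. A low promoter share was therefore a feature of both extremes of the ratio.

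The share of members rose with distance from the nearest TSS. It was 0.413% of shared regions within 1 kb of a TSS, 0.890% at 1 to 5 kb, 1.199% at 5 to 20 kb, 1.61% at 20 to 50 kb, 2.17% at 50 to 100 kb and 2.53% beyond 100 kb. The weaker set rose from 0.992% to 3.66% over the same classes. The SD of the ratio over regions rose too, from 0.29 within 1 kb to 0.43 beyond 100 kb. The median member lay 20088 bp from any TSS and 50547 bp from a coding TSS, against 8309 and 19234 bp for the other regions. Of the members, 563 (50.2%) had no coding TSS within 50 kb, against 30.4% of the others, and 480 lay inside a coding gene. Among distal regions, those over 1 kb from every TSS, the median GC content was 47.7% in members and 50.3% in others, and the share of members fell from 2.19% in the lowest class of GC to 0.604% in the highest. Sequence that was over 50% repeat was as rare in members (35 regions, 3.12%) as in others (2.96%). How far signal, GC content and position each account for these shares was not tested.

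**Figure D2:**
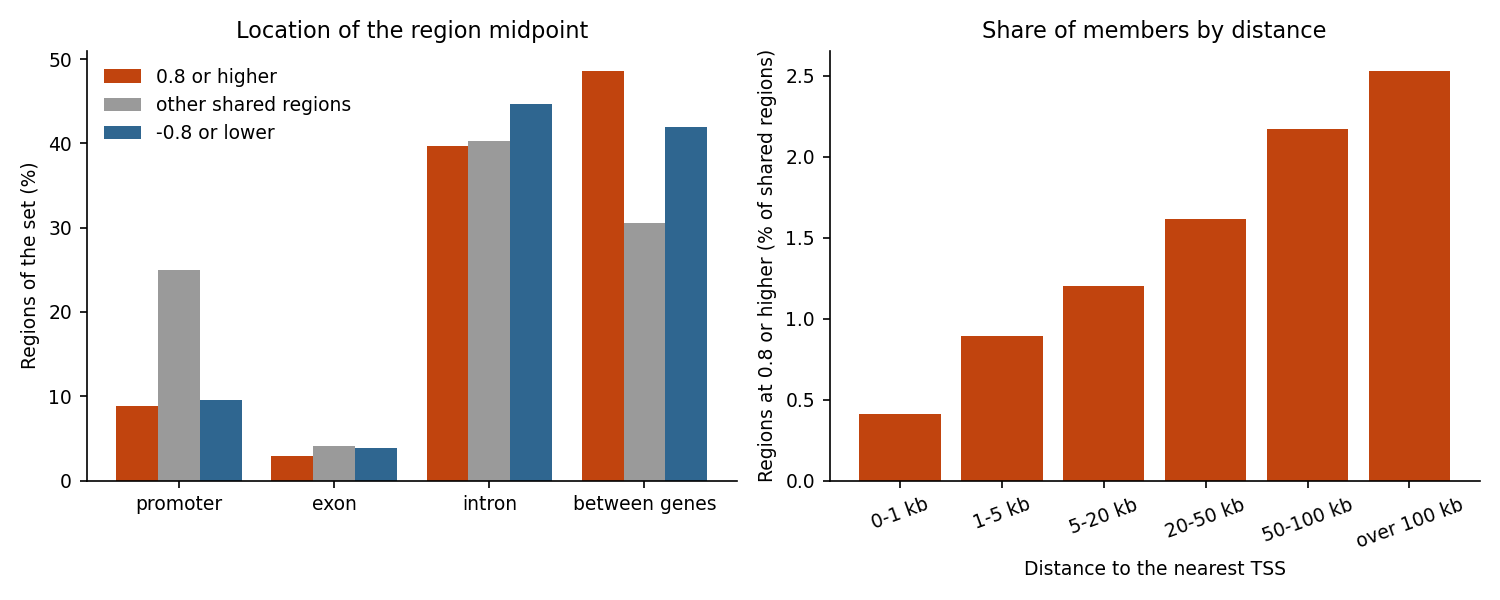
Left, the percent of members (orange), other shared regions (grey) and regions at -0.8 or lower (blue) by the location of the midpoint; promoters held 8.82%, 25.02% and 9.54%. Right, members as a percent of shared regions by distance to the nearest TSS, which rose from 0.413% to 2.53%.

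The 99 promoter members were weaker and less GC-rich than other open promoters. Their median signal was 0.446 and 1.04, against 1.43 and 1.93 at the other promoter regions, and their median GC content 54.3% against 61.6%. Only 70 of them lay within 1 kb of the TSS of a coding gene. By ratio, Trpc7 (above) was followed by Mrps24, a mitochondrial ribosome gene, with 0.936 and 2.76 (centred log2 ratio 1.21), and by Hydin, a gene of motile cilia, with 0.223 and 0.648 (1.19). Rb1cc1, an autophagy initiation gene, had 0.699 and 1.93 (1.12). Mrps24 and Rb1cc1 were thus well above the median promoter member in both pools, while Trpc7 and Hydin were below it. Genes of neurotransmitter receptors followed, with 0.245 and 0.671 at the kainate receptor gene Grik2 and 0.275 and 0.727 at the GABA-A receptor gene Gabrb1. Also among the 10 highest were Frmd4a (0.691 and 1.81), Ninl, a centrosome gene (0.424 and 1.07), and Kdm7a, a histone demethylase gene (0.320 and 0.807). None of these 10 held an AP-1 or CTCF sequence near its midpoint. The share at other promoter regions was not computed, so this count is no result about promoter members.

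The sequences AP-1, CTCF and NR4A were found in more of the members than of other distal regions, and the glucocorticoid response element (GRE) in fewer. Of the shared regions, 72601 were distal and 1023 of these were members (1.41%). Consensus letters of 28 motifs were searched, on either strand, up to 75 bp from the midpoint of the highest replicate 2 peak. AP-1 (the letters TGAGTCA) was found in 288 of 1023 distal members, 28.2% (exact 95% interval 25.4 to 31.0), in 18.9% of the other distal regions and in 8.33% of those at -0.8 or lower. CTCF, searched by its core consensus, was found in 105 members, 10.3% (8.47 to 12.3), in 5.17% of the others and in 0.620% of the weaker set. NR4A, AAAGGTCA, was found in 54 members, 5.28% (3.99 to 6.83), in 2.59% of the others and in 2.22% of the weaker set. Regions are not independent replicates, and these intervals say nothing about spread between animals. Over all distal regions, these motifs were found in 19.0%, 5.24% and 2.63%.

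The GRE, the letters GNACA and TGTNC with 3 bases between them, was found in 1 of 1023 members (0.0978%, interval 0.00247 to 0.543), in 1.02% of the other distal regions and in 6.47% of the weaker set. The same letters are bound by the mineralocorticoid, androgen and progesterone receptors. In all, 433 distal members (42.3%) held an AP-1, CTCF or NR4A sequence, against 26.0% of the others and 10.9% of the weaker set. AP-1 at 2 or more places was found in 36 distal members (3.52%), 1.72% of the others and 0.222% of the weaker set. No distal member held AP-1 and CTCF together, which allows a share of up to 0.293%, above the 0.136% of the others. A match is a sequence, and it does not show that a factor was bound.

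The shares changed step by step along the ratio, so the members stood at the end of a gradient and not apart from the rest. From the lowest to the highest class of 0.2, the AP-1 share rose in each class, from 8.33% to 27.6% just below the threshold and 28.2% in the members. The CTCF share rose from 0.620% to 9.70% and 10.3%, with 1 small reversal, from 1.81% to 1.66%, between the second and the third class. The GRE share fell from 6.47% to 0.0416% just below the threshold and was 0.0978% in the members. NR4A differed in shape: its share stayed between 1.88% and 3.25% in the 9 classes below the threshold and was 5.28% in the members. Over all distal regions the median centred log2 ratio was -0.01. It was 0.07 for regions with AP-1, 0.16 with CTCF, 0.03 with NR4A and -0.43 with the GRE.

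**Figure D3:**
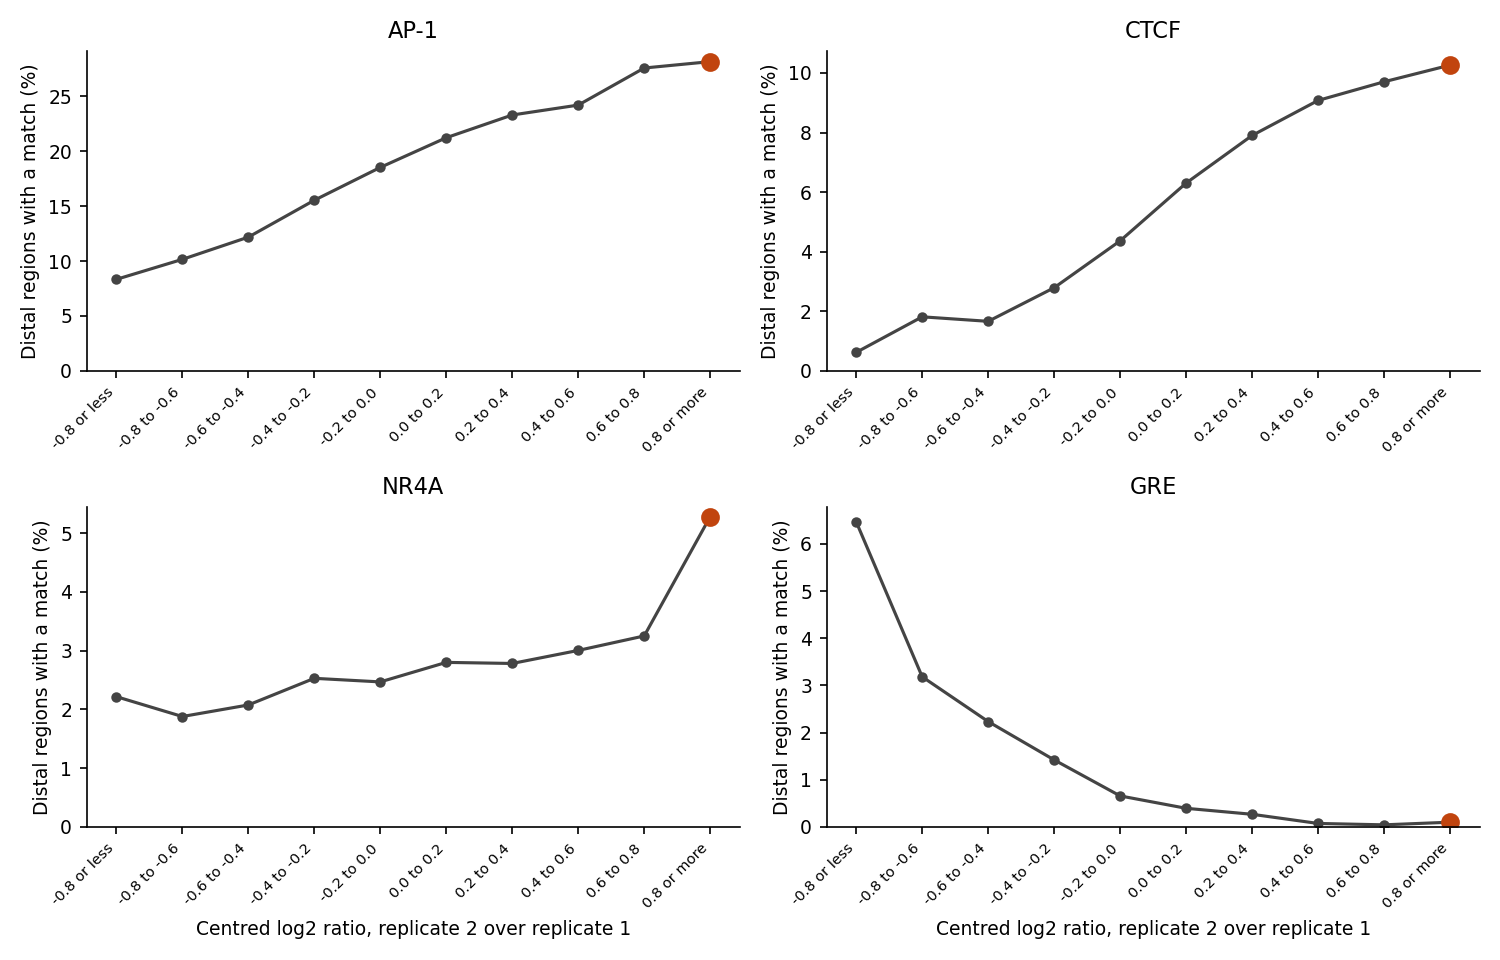
Percent of distal shared regions with an AP-1, CTCF, NR4A or GRE match (y axes from 0, each with its own scale) by class of the centred log2 ratio of replicate 2 over replicate 1. The orange point is the class of the members, at 28.2%, 10.3%, 5.28% and 0.0978%.

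The AP-1 and CTCF shares were higher in members at either level of signal and in each class of GC content. Among distal regions at or above the members' median signal, AP-1 was found in 31.3% of members and 20.5% of others, and CTCF in 10.2% and 5.87%. Below that median the shares were 25.1% and 15.6% for AP-1, and 10.4% and 3.75% for CTCF. Across the 5 classes of GC content, AP-1 was found in 23.0% to 30.5% of members and 12.7% to 21.3% of others. CTCF was found in 9.60% to 11.2% of members and 4.14% to 6.43% of others. NR4A was higher in members in the first 4 classes and found in 0 of 78 members of the most GC-rich class, where 1.09% of the others held it; a count of 0 allows up to 3.85% there.

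Other motifs differed less or were rarer. NR5A1, TCAAGGTCA, was found in 2.25% of members and 2.11% of others. It shares the letters AAGGTCA with NR4A but has C before them where NR4A has A, so 1 place cannot match both. The HOX/PBX sequence TGATTNAT was found in 6.45% and 4.77%. The GATA factor sequence AGATAA was found in 7.23% of members and 9.53% of others, and PU.1, GAGGAAGT, the sequence of a factor of macrophages, in 0.782% and 1.51%. The cAMP response element TGACGTCA was found in 1 member (0.0978%) and 0.528% of others. SP/KLF, CCCGCCCC, was found in 4 members (0.391%) and 1.32% of others. The cAMP response element has 1 more base between its outer TGA and TCA than AP-1, so the same place cannot match both.

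Distal members with AP-1, CTCF or NR4A had slightly higher median signals than those with none of these. Median signals in replicates 1 and 2 were 0.401 and 1.02 for the 288 with AP-1, 0.379 and 0.951 for the 105 with CTCF and 0.420 and 1.04 for the 54 with NR4A. The 590 distal members with none of these had 0.372 and 0.911. Median centred log2 ratios were 0.92, 0.90, 0.90 and 0.91 in the same order. By position, members with CTCF lay 37589 bp from the nearest coding TSS at the median and 58.1% of them lay between genes. Those with AP-1 lay 65794 bp away, with 52.8% between genes.

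The other deposited lists described the same difference between the pools at these sites. They derive from the same alignments as the signal, so they repeat the choice of the members and are no separate evidence. Cleavage at an FDR of 0.001 or lower was listed in 516 members (46.0%) in replicate 1 and 1116 (99.5%) in replicate 2. For the other shared regions these shares were 73.3% and 84.7%. The authors' shorter peak list held a peak in 449 members (40.0%) in replicate 1 and 1114 (99.3%) in replicate 2, and all 449 were among the 1114. A footprint, a short stretch protected from cleavage inside an open region, was listed in 845 members (75.3%) in replicate 1 and 1074 (95.7%) in replicate 2. For the others these shares were 87.1% and 86.5%.

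The share of motif matches under a footprint differed between the motifs and between the pools. The footprints derive from the same alignments as the signal, so the difference between the pools in members repeats their choice. Members and other regions were not matched on signal here. Of the 105 CTCF matches in distal members, 55 (52.4%) were overlapped by a footprint in replicate 1 and 104 (99.0%) in replicate 2. In the other distal regions 80.7% and 89.6% of 3698 matches were. CTCF matches in members lay a median of 9 bp from the midpoint of the peak. Of the 288 AP-1 matches, 82 (28.5%) were overlapped in replicate 1 and 194 (67.4%) in replicate 2, against 44.9% and 57.0% in other regions. They lay a median of 18 bp from the midpoint, against 22 bp in the other regions. For the 54 NR4A matches the counts were 9 (16.7%) and 26 (48.1%), against 32.0% and 36.1%. The GRE match in a member had no footprint in either pool.

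**Figure D4:**
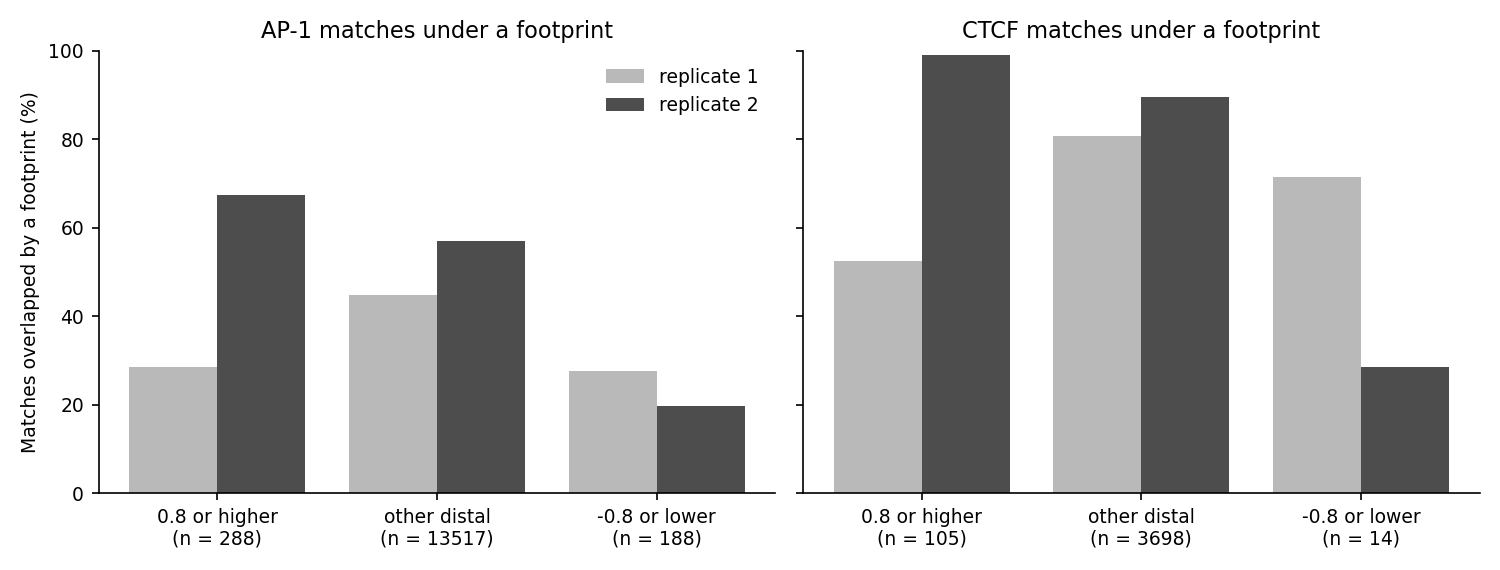
Percent of AP-1 (left) and CTCF (right) matches in distal regions that a deposited footprint overlapped in replicate 1 (light) and replicate 2 (dark), for members, other distal regions and regions at -0.8 or lower. In members 28.5% and 67.4% of AP-1 matches and 52.4% and 99.0% of CTCF matches were overlapped.

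Few members lay near the listed genes, which cover adrenal cell types, other cells and organs, and gene programs. Within 50 kb of a TSS of the 229 genes of 18 lists there were 2004 shared regions, and 10 of them (0.499%) were members, against 1.16% of all shared regions; 47 of the 2004 (2.35%) were at -0.8 or lower, against 2.58%. Regions near a list lie within 50 kb of a coding TSS by definition, whereas 50.2% of members and 30.4% of the other shared regions do not. The shares of all regions include these far ones, so they are not a like base for regions near a coding TSS. Members were more common among the far regions, so 1.16% is higher than the share among regions near a coding TSS. The latter share was not computed. Among the lists the shares lay on both sides of that of all regions. Chromaffin cell genes of the medulla had 3 members of 188 regions (1.60%), and the median centred log2 ratio of these 188 regions was 0.05. A pair of them belonged to Scg3, a secretogranin gene of dense-core vesicles: its promoter had 0.773 in replicate 1 and 1.76 in replicate 2 (centred log2 ratio 0.84), and an intron 0.342 and 0.871 (1.00). The third lay 29860 bp from Slc18a1, the vesicular monoamine transporter gene, with 0.624 and 1.57 (0.99). Its nearest coding TSS was that of Lzts1, 21871 bp away. With 3 members, the share for this list rests on few regions. The lists were drawn up with earlier results on these samples known.

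In the cortex, steroidogenesis genes had 1 member of 256 regions, the Hao2 intron near Hsd3b1, and the median centred log2 ratio of the 256 was -0.09. Zona glomerulosa and capsule genes had none (median 0.03, share of up to 1.99% allowed by the count of 0) and cholesterol synthesis genes 0 of 138 (0.04). Neuron genes had 2 of 77 (median 0.11): 42072 bp from the microtubule gene Map2, with 0.290 and 0.711, and at the promoter of Agbl4, a tubulin carboxypeptidase gene, with 0.394 and 0.943, which lies 45812 bp from the RNA-binding protein gene Elavl4. Kidney tubule genes had 2 of 64 (-0.06), both near the megalin gene Lrp2, with 0.223 and 0.504, and 0.275 and 0.616. The latter lay 49106 bp from Lrp2 and closer to Bbs5, at 12037 bp. Smooth muscle and pericyte genes had 1 of 74 (-0.01), near Rgs5, a regulator of G protein signalling, with 0.320 and 0.719.

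Among gene programs, glucocorticoid response genes had 1 of 176 (-0.05), 2614 bp from Nfkbia, the gene of an NF-κB inhibitor, with 0.907 and 2.05. Circadian clock genes had 0 of 211 (-0.02), and immediate early genes, which include those of Fos, Jun and the NR4A receptors, also none (-0.01). No member lay near a gene of the remaining lists: endothelium (0 of 148 regions, median -0.13), adipocytes (0 of 94, -0.04), macrophages (0 of 88, -0.05), lymphocytes (0 of 75, -0.02), Schwann and sustentacular cells (0 of 73, 0.03), hepatocytes (0 of 54, -0.12), erythroid cells (0 of 50, -0.05) and fibroblasts (0 of 43, -0.12). A count of 0 allows a share of up to 1.42% for the clock genes and 6.98% for the fibroblast genes, so none of these counts of 0 lies below the 1.16% of all regions.

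At promoters alone, within 1 kb of a TSS, the lists' medians lay further apart but rested on few regions. The median centred log2 ratio ran over the 18 lists from -0.77 (kidney tubules, 1 region) to 0.38 (Schwann and sustentacular cells, 6). It was 0.33 for neuron genes (14 regions), 0.10 for chromaffin cell genes (34), -0.38 for endothelium genes (15) and -0.60 for macrophage genes (7). The lists of the cortex lay on both sides of 0. Their medians were -0.09 for steroidogenesis genes (29), -0.08 for cholesterol synthesis genes (28) and 0.12 for zona glomerulosa and capsule genes (19). The Scg3 promoter was the only member among the promoter regions of all 18 lists. Of all shared regions within 1 kb of a TSS, only 0.413% were members, so a count of 1 is no result about Scg3 or its list.

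**Figure D5:**
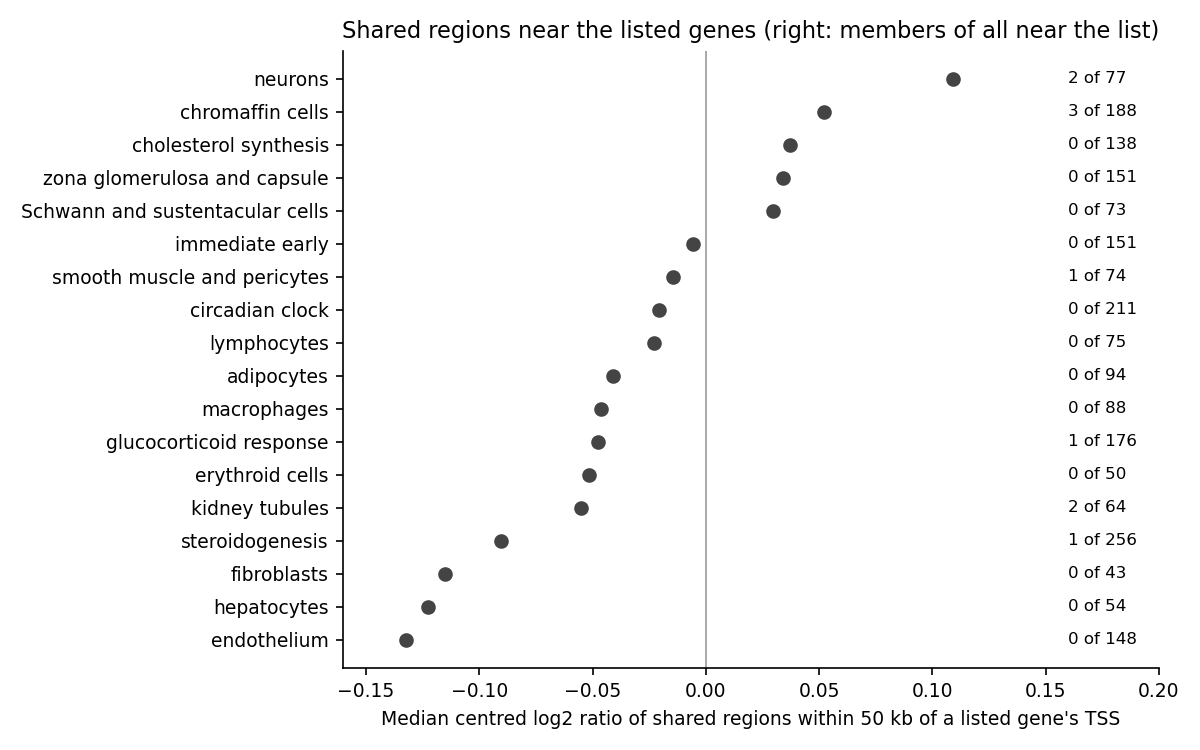
Median centred log2 ratio of the shared regions within 50 kb of a TSS of each list's genes (points), with the number of members among them at the right. These medians within 50 kb ran from -0.13 (endothelium) to 0.11 (neurons), and no list had more than 3 members.

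Within 50 kb of a TSS, few coding genes had several members. Of the 892 genes with a member in that window, 37 had 2 and none had more. Counted without that window, 11 genes were the nearest coding gene of 3 members and 4 genes held 3 members in their body, the most for any gene. These 4, named after their values were seen, were Il1rapl2, Prkg1, Sdk2 and Specc1. The 6 of the 37 with the highest median ratio were Palld, Gm10477, Dmrta2, Tdrd3, Gif and Mrpl16. Palld, an actin-binding scaffold gene on chromosome 8, had intron regions with 0.297 and 0.879 and with 0.453 and 1.26, among 19 shared regions within 50 kb. The transcription factor gene Dmrta2 on chromosome 4 had 0.721 and 1.69, and 0.409 and 1.18, and these were 2 of only 3 shared regions near it. Tdrd3, which encodes a reader of methylated arginine, had intron regions with 0.498 and 1.37 and with 0.483 and 1.18. Gif, the intrinsic factor gene, and Mrpl16, a mitochondrial ribosome gene, share a pair on chromosome 19, with 0.260 and 0.727, and 0.424 and 1.02. Gm10477 on chromosome X had 0.505 and 1.24, and 0.178 and 0.536.

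Members lay in sparse surroundings, and their neighbours leaned slightly the same way. The median member had 3 other shared regions within 50 kb, against 7 for the other regions and 5 for those at -0.8 or lower. No neighbour was found for 122 members (10.9%), for 3.43% of the other regions and for 9.54% of those at -0.8 or lower, so sparse surroundings were a feature of both extremes. Of the 1000 members with neighbours, 58.5% had neighbours with a median centred log2 ratio above 0, against 49.3% of the other regions and 39.5% of those at -0.8 or lower. The typical neighbour median was 0.04, far from the members' own 0.90. A second member lay within 50 kb of 91 members (8.11%), while a member lay within that distance of 4.48% of the other regions and 3.49% of those at -0.8 or lower.

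Runs of 3 or more members with gaps of at most 100 kb, a description added after the values were seen, occurred at 3 places. The longest was a stretch of 216 kb at chr10:10109981-10325900, between Stxbp5 and Adgb, with 4 members among 8 shared regions. The 4 had 0.245 and 0.815, 0.290 and 0.759, 0.461 and 1.41, and 0.260 and 0.727, and the other 4 regions had centred log2 ratios of 0.13 to 0.43. All 8 regions of this stretch were thus above the median of all shared regions. In Sdk2, a cell adhesion gene on chromosome 11, 3 intron regions had 0.401 and 1.04, 0.453 and 1.22, and 0.788 and 1.78. They were among 5 shared regions, of which 1 was below the median (-0.45). The third, at chr13:21215441-21279860 between Trim27 and Gpx5, held 3 members among 9 regions, with 0.587 and 1.57 beside the pair of strong regions given above. The other 6 there ranged from -0.16 to 0.54.

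By chromosome, the X stood out. It held 58 members of 2471 shared regions, 2.35%, against 1.13% on the autosomes, where the share ran from 0.783% on chromosome 15 to 1.73% on chromosome 13. Among distal regions the shares were 3.27% and 1.36%. Members on the X were weaker, with median signals of 0.256 and 0.667 against 0.394 and 0.967 on the autosomes. The share at -0.8 or lower was also higher on the X, 3.16% against 2.56%, and the SD of the ratio was 0.41 against 0.37, while the median centred ratio of all regions was close to 0 on both. The Y had 0 members of 42 shared regions, which allows a share of up to 7.14%; 6 of the 42 (14.3%) were at -0.8 or lower, and the median centred log2 ratio of the 42 was -0.12. All mice were male, and the part of the lower signal in the share on the X was not tested.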

How the data were processed

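DNase-seq was analysed for 1 library from each of 2 pools of adrenal gland, on mm10 per the labels. The authors deposited, per pool, 2 peak lists with a signal value per peak, a list of footprints, whose value column held the constant 0.01, and a table of false discovery rates (adjusted p-values) of the cut rate, which lists intervals under 0.05. Per the deposited readme texts, each was made from the filtered alignments of that library. The sources used here do not give the aligner, the callers, their thresholds or the scaling of the signal, and the depth of the libraries is not known.

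The longer list of each pool (117371 and 146307 peaks) was the main one. Region merging, ratios and locations were computed with Python 3.11.15, numpy 2.4.6 and pandas 2.3.3, exact intervals with scipy 1.17.1, and genes were taken from the GENCODE M21 basic annotation (GRCm38). All 229 listed genes matched by symbol. Motif windows, 75 bp on either side of a midpoint, were read from the reference genome. The merging, the ratio and the motif search were tested on simulated data. The members, gene lists and motifs were chosen with earlier results of these data known. Regions were named by rule: the 12 highest ratios, the 10 with the most signal in replicate 2, the 10 highest coding promoters, the 6 coding genes with the most members within 50 kb, up to 3 members near each gene list, and 3 on either side of the threshold; 1 of the promoters so named is not reported here. A region carries the name of the coding gene with the nearest TSS, which need not be its target. Sequences came from 8 of these regions, none of them over a UTR. No p-values were computed, since the pools are 1 group and the ratio chose the members. Whether the pools came from separate animals is not stated. The alternatives changed the peak list, the value per region, the centring, the threshold, the overlap, the signal minimum, the chromosomes, the distances and the motif window.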

Additional observations from a re-analysis of the deposited data

How the results depend on the processing

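Both the number of members and their makeup changed under some settings. With the authors' shorter peak lists 396 of 62719 shared regions passed the threshold, 388 of the 1122 among them. A threshold of 0.6 gave 3887 regions and one of 1 gave 286. With a signal at or above the median in both pools 46 were left, since weak sites were removed. Counts of 817 to 1423 under the other 6 settings of regions, values, centring and chromosomes were within 1.5 times of 1122. Centring within 20 classes of signal gave 1423 regions and contained 1026 of the 1122, and quantile-matched signals gave 1117 and contained 1003. The promoter share, 8.82%, was 11.9% at a threshold of 0.6, 3.85% at 1, 6.73% where the highest peaks overlapped by at least 50% of the wider one, and 6.24% with promoters of 500 bp. The share of distal members with AP-1, 28.2%, was 33.5% with the shorter lists, 45.2% (19 of 42) with the signal minimum and 32.3% with windows of 150 bp on either side. Shares of the other regions were not computed under these settings, so differences from them are not known there. Members near a chromaffin cell gene, 0.267%, were 0% (0 of 46, which allows a share of up to 6.52%) with the signal minimum and 0.802% within 100 kb. The remaining 30 of 43 values stayed within 1.5 times (counts) or within the exact 95% interval (shares) of the value reported. These rules differ, so they do not compare counts with shares. The interval is wide for the chromaffin share, which rests on few members. No paired analysis was possible because the labels give 1 group only. Leaving out a replicate leaves no ratio and was not run.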

Other observations

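A count of all 8192 distinct 7-base sequences (each counted with its reverse complement), chosen after the data were seen, ranked them by the percentage points between distal members and other distal regions. TGACTCA, the AP-1 sequence, was first, with 28.2% and 18.9%. Overlapping parts of it, CTGAGTC (4.76 points), ATGAGTC (4.57 points) and ATGACTC (4.43 points), were next. AGAGGGC (10.8% and 7.20%), AGGTGGC (8.90% and 5.53%) and CCACTAG (6.84% and 3.95%), found at rank 5, 6 and 8, are stretches of the core consensus searched for CTCF. At the other end was CAAGGCC, in 7.14% of members and 10.6% of others, preceded by CCTCCCC, in 2.54% and 5.90%. Neighbouring ranks share letters and regions, and no test was made.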
